A study of Mus musculus with 31 samples.

Results

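Multipotent progenitors (MPP) sorted from mouse bone marrow 28 days after an injection of β-glucan were compared with MPP from mice injected with PBS. Members were the 8 libraries whose titles name MPP, 4 after PBS and 4 after β-glucan, of 31 libraries in all. The mice were wild-type C57BL/6 animals of 10 weeks. They received PBS or 1 mg of β-glucan in PBS by intraperitoneal injection, and no other agent. Both arms therefore share the strain, the age, the route of injection and the vehicle. The gates of the sort are not given in the sources used here. The labels do not say whether the 4 replicates of an arm were separate mice, so p-values measure only the spread between these samples, which may be technical. Column names of the count table give the arm as P or G, read here as PBS and β-glucan, and the day was taken from the titles because MPP were sorted only at day 28.

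MPP are the progenitors just below the hematopoietic stem cell (HSC). They have lost most self-renewal but still feed every blood lineage, and they express low levels of lineage genes before commitment, which is called lineage priming. The lymphoid branch runs from IL-7 receptor and EBF1 expression to the pre-B cell receptor, a test receptor in which the surrogate light chains VPREB and IGLL1 (lambda 5) pair with a newly rearranged heavy chain. β-glucan is a polysaccharide of fungal cell walls that is recognised by dectin-1 (Clec7a), and its injection is used to study trained immunity, a lasting change of innate responses. Hematopoietic progenitors are known to be sensitive to stress of the endoplasmic reticulum (ER), where secreted and membrane proteins are folded by chaperones such as HSPA5 (BiP).

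The 8 libraries held 24567232 to 35917497 counts and 22349 to 23474 detected genes. Known markers set MPP apart from the HSC libraries of the same table in PBS mice: Cd48 (log2 difference 0.74), Flt3 (1.04) and Cd34 (1.27) were higher in MPP and Slamf1 was lower (-2.32), all called. PBS replicate 1 carries an HSC tag in the labels beside its MPP title. The CPM of marker genes given next were scaled over the 16 MPP and HSC libraries. They differ slightly from those given elsewhere, which were scaled over the 8 MPP libraries unless stated. Its Slamf1 (1.31 CPM), Cd48 (183.6 CPM) and Flt3 (36.3 CPM) stood within or next to the range of the other MPP libraries of PBS mice (Slamf1 0.908 to 1.3, Cd48 165.7 to 177.1, Flt3 30.3 to 39.4 CPM). Its Mecom (5.58 CPM), Procr (5.96 CPM) and Hlf (33.1 CPM) stood above those libraries (3.81 to 4.57, 4.435 to 5.19 and 21.2 to 28.2 CPM). These stem cell genes had 7.535 to 13.8, 4.735 to 10.79 and 21.98 to 43.1 CPM in the HSC libraries of PBS mice. The title was followed. Transcripts of mature cells were present in every library: 26 erythroid markers held 15.8 to 18.6% of counts after PBS and 13 to 16.6% after β-glucan, and 17 neutrophil markers 6.4 to 7.61% and 5.36 to 6.33%. No listed marker was at 0 in all 8 libraries.

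β-glucan replicates 3 and 4 stood apart from β-glucan replicates 1 and 2. Both had the lowest totals (25764775 and 24567232 counts) and the lowest share in the 10 highest genes (18.7 and 18.8%, against 20.9 to 25.9% in the other libraries). Of the genes called higher after β-glucan, 305 of 431 (70.8%) had both of these libraries above both other β-glucan libraries, against 22.3% of all genes tested. Results for β-glucan replicates 1 and 2 alone against PBS, a choice made after the data were seen, are therefore set beside the list counts and beside many of the genes below. What sets the pair apart was not tested.

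Of 15828 genes tested, 431 were higher after β-glucan (2.72%) and 302 were lower (1.91%), 733 in all (4.63%). A call means an adjusted p (Benjamini-Hochberg, over every gene in the fit) under 0.05 in the quasi-likelihood test of edgeR. Unless another quantity is named, the number after a gene is its log2 fold change, β-glucan over PBS, ± standard error. Levels are read counts scaled to equal library totals (CPM). Most changes were small: 97 genes rose more than 2-fold and 9 fell more than 2-fold. Libraries of the arms did not overlap for 1024 genes in the higher direction (6.47%) and 937 in the lower (5.92%). With β-glucan replicates 1 and 2 alone, 122 genes were higher and 67 lower, 1.16% of 16326 tested, and 116 and 59 of these were among the calls on all libraries. The calls also depended on single libraries: 72 of the higher and 67 of the lower genes were called again without each library in turn.

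Calls were counted over 33 gene lists. Of these, the pre-B receptor, lymphoid, mature B, T and NK cell, mature neutrophil and type I interferon lists had at least 8 members called lower each and at most 2 called higher. The ER chaperone list had 10 members called higher and none lower, and the granulocyte-monocyte priming list 7 and 1. Other lists, such as the AP-1 and plasma cell lists, had calls in both directions. All genes tested had a median of -0.00, so list medians can be read from 0. Counts of called members, here and below, can be read beside 2.72% of all genes called higher and 1.91% called lower. Members and lists were chosen with earlier results of these data known, and no list was tested as a set.

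**Figure D1:**
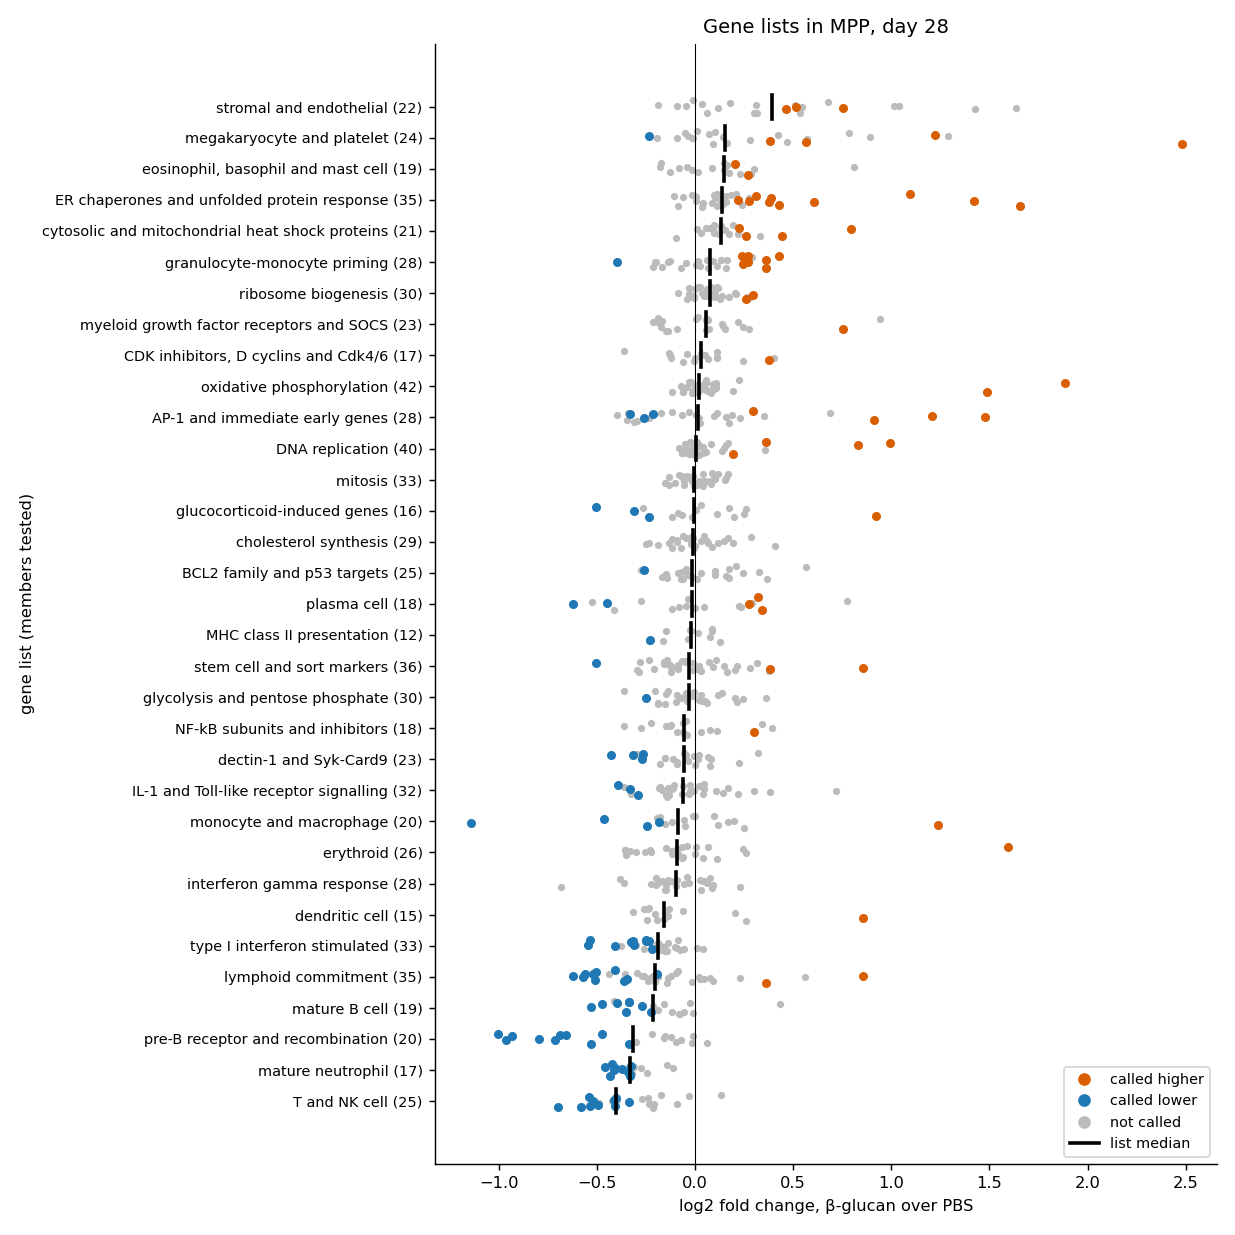
Log2 fold change (β-glucan over PBS, x axis) of each tested member of 33 gene lists (y axis, members tested in parentheses), with 4 libraries per arm. Points are genes, coloured where called higher or lower, and black bars are list medians, from -0.40 for T and NK cell genes to 0.39 for stromal and endothelial genes.

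Genes of the pre-B receptor and of antigen receptor recombination were lower after β-glucan. Of 20 members, 10 were called lower and 0 higher, beside 1.91 and 2.72% of all genes tested, and the list's median was -0.32. They included the surrogate light chains Vpreb1, Vpreb2 and Igll1, the VPREB family gene Vpreb3, the signalling chains Cd79a and Cd79b, the adaptor Blnk, and the recombinase genes Rag1 and Rag2. The same number, 10, was called without any single library and with β-glucan replicates 1 and 2 alone. The list held 0.151 to 0.172% of counts in the PBS libraries and 0.129 to 0.137% in the β-glucan libraries. In such bulk samples, fewer cells of a type and less RNA per cell cannot be told apart.

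Vpreb1 (ENSMUSG00000059305, mm10 chr16:16868402-16870843) encodes a part of the surrogate light chain. It stood at 37.8, 35.1, 29.9 and 34 CPM in PBS replicates 1 to 4 and at 18.9, 17.8, 17 and 17.9 CPM in β-glucan replicates 1 to 4. All β-glucan libraries lay below all PBS libraries, and the change was -0.93 ± 0.08 (adjusted p = 0.000187), and -0.89 with β-glucan replicates 1 and 2 alone. Igll1, which forms the surrogate light chain with VPREB1, stood at 91, 85.2, 76.1 and 95 CPM after PBS and at 49.6, 46.3, 38.3 and 43.8 CPM after β-glucan (-0.96 ± 0.08). Again no library overlapped, and β-glucan replicates 1 and 2 alone gave -0.85 (adjusted p = 0.000557). Vpreb1 has a near copy: 31.2% of its 50-base windows occur in Vpreb2 transcripts. Reads of these genes can be split between them, and the value of Vpreb2, which was called lower, is uncertain.

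Vpreb3 stood at 110.8, 105.7, 96.1 and 100.7 CPM after PBS and at 70.8, 66.9, 57.6 and 61.4 CPM after β-glucan (-0.69 ± 0.07). Blnk, which links the receptor to its kinases, stood at 71.9, 68.4, 69.4 and 72.5 CPM after PBS and at 47.4, 46.4, 44.6 and 40.4 CPM after β-glucan (-0.66 ± 0.06). Rag1 and Rag2, the nuclease that cuts receptor gene segments, fell by 0.79 ± 0.12 and 0.71 ± 0.10. Rag1 was 7.9 to 8.31 CPM in the PBS libraries and 4.06 to 5.83 CPM in the β-glucan libraries, and Rag2 was 14.6 to 19.8 and 9.11 to 11.2 CPM. The arms of all 4 genes were separate. Vpreb3, Blnk, Rag1 and Rag2 had -0.58, -0.58, -0.67 and -0.72 with β-glucan replicates 1 and 2 alone, all called. Cd79a (-0.47 ± 0.05) and Cd79b (-0.34 ± 0.05) fell by less.

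The members not called had smaller values. Dntt, the terminal transferase that adds bases at receptor joins, stood at -0.22, and the kinase genes Syk and Btk at -0.15 and -0.10. The repair genes Prkdc, Xrcc6, Xrcc4, Xrcc5, Lig4 and Dclre1c, which join broken DNA in all cells, stood between -0.30 and -0.01.

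The promoters of the 3 pre-B receptor genes of the smallest p that encode VPREB or IGLL1 proteins are shown because these genes fell together. Each is the RefSeq window from 250 bases before to 50 bases after the start (GRCm38.p6), 5′ to 3′ on the gene's strand, and capitals mark CCCNNGGG, the core letters bound by EBF1, searched on both strands. Vpreb1 is read from the minus strand of chr16:16869206-16869505, Igll1 from the minus strand of chr16:16863936-16864235 and Vpreb3 from the plus strand of chr10:75948050-75948349.
Vpreb1: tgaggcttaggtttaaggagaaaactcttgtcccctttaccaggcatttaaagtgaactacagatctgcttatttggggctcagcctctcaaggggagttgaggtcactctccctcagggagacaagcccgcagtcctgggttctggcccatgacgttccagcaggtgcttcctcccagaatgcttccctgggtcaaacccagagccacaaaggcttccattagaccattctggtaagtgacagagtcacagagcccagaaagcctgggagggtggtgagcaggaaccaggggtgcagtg
Igll1: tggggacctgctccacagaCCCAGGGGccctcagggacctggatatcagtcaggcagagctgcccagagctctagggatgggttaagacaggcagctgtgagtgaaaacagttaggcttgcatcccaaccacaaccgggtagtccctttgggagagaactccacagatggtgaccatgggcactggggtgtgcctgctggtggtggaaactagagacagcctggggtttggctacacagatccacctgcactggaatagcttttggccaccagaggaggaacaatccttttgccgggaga
Vpreb3: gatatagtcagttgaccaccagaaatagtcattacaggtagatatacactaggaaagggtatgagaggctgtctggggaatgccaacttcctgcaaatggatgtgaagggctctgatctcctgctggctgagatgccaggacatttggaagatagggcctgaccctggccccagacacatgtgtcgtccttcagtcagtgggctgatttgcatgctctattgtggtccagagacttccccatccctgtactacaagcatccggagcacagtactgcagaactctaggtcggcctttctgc
Igll1 held the letters once and the other two promoters did not hold them. Among 17 list members with a promoter entry, 1 held them (5.88%), against 13.7% of all 32851 promoter windows of 300 bases.

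**Figure D2:**
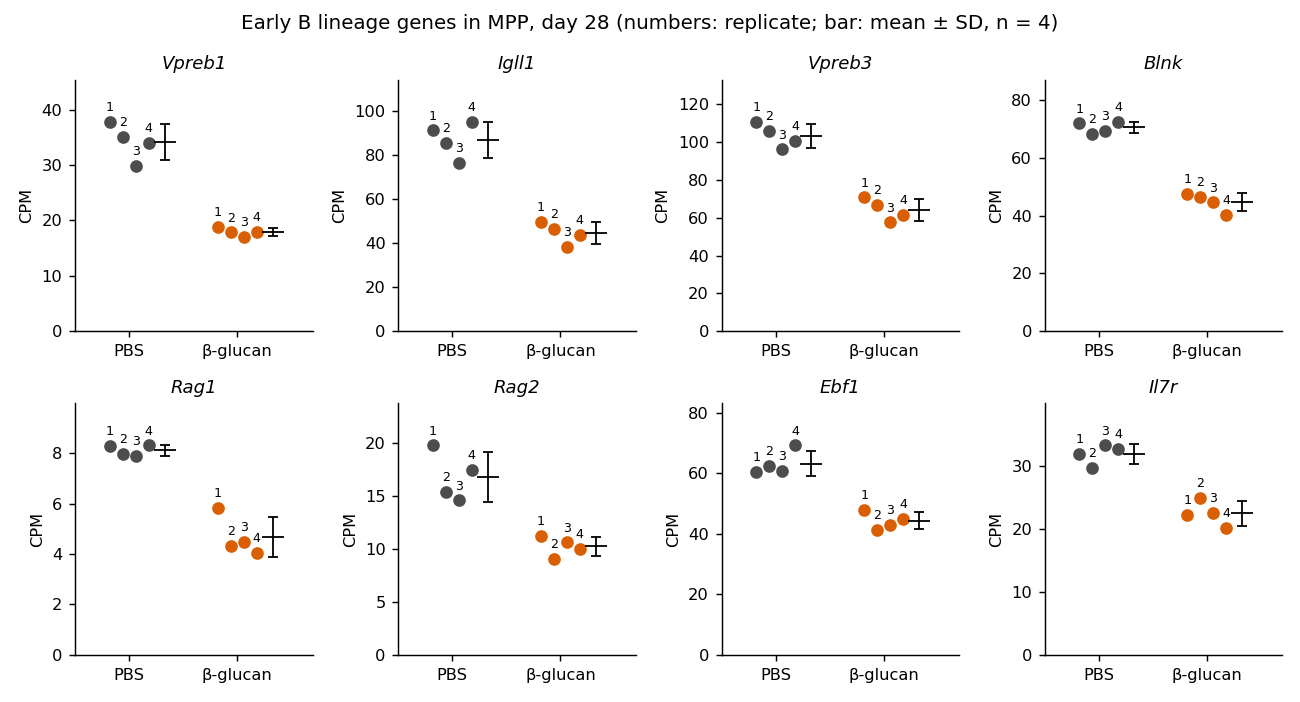
CPM (y axis, from 0) of 8 early B lineage genes in each MPP library of PBS and β-glucan mice (x axis). Numbers are replicates and bars are mean ± SD (n = 4). For each of the 8 genes, all β-glucan libraries lie below all PBS libraries.

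Upstream lymphoid regulators were lower as well. Of 35 lymphoid commitment genes, 10 were called lower and 2 higher, with a list median of -0.20, and the 2 higher (Irf8 and Flt3) also act in myeloid and dendritic cells. Ebf1, the factor that sets the B cell program, stood at 60.4, 62.3, 60.8 and 69.2 CPM after PBS and at 48, 41.3, 43.1 and 45 CPM after β-glucan (-0.51 ± 0.06, adjusted p = 0.00294). Il7r, the receptor for the lymphoid growth factor IL-7, stood at 32, 29.7, 33.3 and 32.7 CPM after PBS and at 22.3, 25, 22.6 and 20.1 CPM after β-glucan (-0.50 ± 0.07). Neither gene overlapped between arms, and both were called without any single library. Ebf1 had -0.49 and Il7r -0.43 with β-glucan replicates 1 and 2 alone, both called.

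Lef1 (-0.57 ± 0.08), a factor of early B and T cells, Id3 (-0.41 ± 0.06), which blocks E proteins, and Ccr7 (-0.52 ± 0.09), a homing receptor, were also called without each library in turn. Pax5 (-0.56), Irf4 (-0.62), Ly6d (-0.36) and Bach2 (-0.35) were also among the 10. Pax5 was not called without PBS replicate 1 or without PBS replicate 2, and its highest adjusted p was 0.0682. With β-glucan replicates 1 and 2 alone, 6 members were lower and 0 higher, and 5 to 10 were lower without 1 library, with 5 without PBS replicate 2 and 6 without PBS replicate 3. Ikzf1, Notch1 and Satb1 (-0.09, -0.27 and 0.08), which act at entry to the lymphoid path, were not called.

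Markers of mature lymphocytes were lower too, although their summed level was not. Of 19 mature B cell genes, 8 were called lower and 0 higher (median -0.22). Cd79a and Cd79b, counted above, are among these 8, and Cd72 (-0.35 ± 0.06), Fcrla (-0.40 ± 0.07) and Cd37 (-0.23 ± 0.04) were others. The list's summed share, which holds the immunoglobulin constant genes, was 0.951 to 1.08% after PBS and 0.957 to 1.1% after β-glucan. With β-glucan replicates 1 and 2 alone 3 were lower, and without 1 library 5 to 8, with 5 without PBS replicate 2 and without PBS replicate 3. Cd72 shares 54.3% of its windows with transcripts of Tesk1, and the counting is not stated to use strand, so its value is uncertain.

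Of 25 T and NK cell genes, 10 were called lower and 0 higher, with the lowest list median (-0.40). Gzma, a granule protease of killer cells, stood at 11.3, 11.4, 11.5 and 9.98 CPM after PBS and at 7.42, 7.74, 6.41 and 5.59 CPM after β-glucan (-0.70 ± 0.11), and its change was -0.54, still called, with β-glucan replicates 1 and 2 alone. The NK receptor gene Klrb1c (-0.54 ± 0.09) and the adhesion gene Cd2 (-0.41 ± 0.07) fell with it, and these 3 genes were called without each library in turn. Their arms did not overlap. The whole list held 0.0702 to 0.0784% of counts after PBS and 0.0715 to 0.0766% after β-glucan. Members called were 5 with β-glucan replicates 1 and 2 alone, and 5 to 13 without 1 library, with 5 without PBS replicate 2 and 6 each without PBS replicate 3, β-glucan replicate 3 or β-glucan replicate 4. The part that such cells take in the lower lymphoid genes was not tested.

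Plasma cell genes moved both ways, with 3 of 18 called higher and 2 lower. The higher members Edem2 (0.32) and Fkbp11 (0.34) act in protein folding and disposal in the ER, and the higher member Xbp1 (0.27) is a factor that regulates such genes. The lower members were Mzb1 (-0.45) and Irf4 (-0.62). None of the 3 higher genes was called with β-glucan replicates 1 and 2 alone. Mzb1 shares 75.7% of its windows with transcripts of another gene, and its value is uncertain.

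ER chaperone genes were higher after β-glucan. Of 35 members of the ER chaperone and unfolded protein response list, 10 were called higher and 0 lower, 30 of 35 had a positive value, and the median was 0.14. The list held 0.599 to 0.651% of counts after PBS and 0.743 to 0.877% after β-glucan, with no overlap. With β-glucan replicates 1 and 2 alone, 6 were higher, and the count was 5 to 11 without 1 library, with 5 each without PBS replicate 1 or PBS replicate 3 and 6 each without PBS replicate 2 or β-glucan replicate 3.

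Hspa5 (ENSMUSG00000026864), the main chaperone of the ER, stood at 1091, 1139, 1106 and 1170 CPM after PBS and at 1441, 1436, 1449 and 1557 CPM after β-glucan. Every β-glucan library lay above every PBS library, and the change was 0.38 ± 0.05 (adjusted p = 0.00385), 0.36 with β-glucan replicates 1 and 2 alone. Manf, a secreted protein that is induced by ER stress, stood at 156.2, 164.5, 159.7 and 154.4 CPM after PBS and at 209, 215.7, 206.1 and 224.2 CPM after β-glucan. It had the smallest p of the list, with a change of 0.43 ± 0.04 (adjusted p = 0.000752), and 0.42 with β-glucan replicates 1 and 2 alone. In both genes the spread within the β-glucan arm was smaller than the difference between arms.

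Sdf2l1, a partner of HSPA5, rose more and unevenly. It stood at 35.8, 43, 40.6 and 43.1 CPM after PBS and at 82.4, 71.2, 126.2 and 155.2 CPM after β-glucan (1.42 ± 0.20), and β-glucan replicates 3 and 4 were highest. Creld2, another secreted ER stress protein, stood at 27.5, 32.3, 31.4 and 30.8 CPM after PBS and at 51.9, 46.8, 73.1 and 89.4 CPM after β-glucan (1.10 ± 0.16). Pdia3, an oxidoreductase that folds glycoproteins, stood at 150, 191.3, 182 and 208.2 CPM after PBS and at 408.7, 286.7, 748.8 and 856.7 CPM after β-glucan (1.65 ± 0.27). The arms of all 3 genes were separate, and all 3 were called without each library in turn. With β-glucan replicates 1 and 2 alone their changes were 0.92, 0.70 and 0.93, all called.

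Derl1 (0.60), which draws misfolded proteins out of the ER, Dnajb11 (0.31) and Dnajc3 (0.37), co-chaperones of HSPA5, P4hb (0.22), a disulfide isomerase, and the factor Xbp1 (0.27) were the other 5 members called. Of these 5 only Derl1 was called with β-glucan replicates 1 and 2 alone, where Dnajb11 and Xbp1 had adjusted p-values of 0.15 and 0.11. The remaining chaperones Calr, Canx, Hsp90b1, Hyou1, Pdia4 and Pdia6 had values of 0.11 to 0.16 and were not called. The sensor genes Atf6, Ern1 and Eif2ak3 had -0.11, 0.04 and 0.11. Ddit3 (-0.09), Atf4 (0.04) and Trib3 (-0.06), which act in the stress arm that slows translation, were not called, and Ppp1r15a, which reverses that arm, fell (-0.21 ± 0.05). Ppp1r15a was called in 4 of the 8 fits without 1 library.

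The promoters of 4 ER chaperone genes are shown because 3 of them rose more than 2-fold and Hspa5 is the reference gene of the pathway. They are the called members of the smallest p with a promoter entry, a set added after the values were seen. Windows and build are as above, and capitals mark the ER stress response element, which is CCAAT and CCACG with 9 bases of any kind between, or its variant, ATTGG and CCACG with 1 base between, both strands searched. Both motifs hold CCACG and could overlap there. Hspa5 is read from the plus strand of chr2:34771840-34772139, Sdf2l1 from the minus strand of chr16:17132334-17132633, Creld2 from the plus strand of chr15:88819396-88819695 and Pdia3 from the plus strand of chr2:121413652-121413951.
Hspa5: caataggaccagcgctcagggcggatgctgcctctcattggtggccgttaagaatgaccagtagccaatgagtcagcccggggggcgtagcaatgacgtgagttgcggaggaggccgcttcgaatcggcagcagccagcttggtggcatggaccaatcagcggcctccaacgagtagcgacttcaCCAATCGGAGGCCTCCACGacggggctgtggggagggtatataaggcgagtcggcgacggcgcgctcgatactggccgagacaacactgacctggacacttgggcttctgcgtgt
Sdf2l1: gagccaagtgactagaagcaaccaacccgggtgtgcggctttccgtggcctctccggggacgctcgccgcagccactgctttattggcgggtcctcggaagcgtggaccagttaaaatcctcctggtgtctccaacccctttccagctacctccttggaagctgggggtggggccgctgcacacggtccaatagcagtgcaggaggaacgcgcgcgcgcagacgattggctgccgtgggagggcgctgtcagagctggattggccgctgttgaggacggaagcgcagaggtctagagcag
Creld2: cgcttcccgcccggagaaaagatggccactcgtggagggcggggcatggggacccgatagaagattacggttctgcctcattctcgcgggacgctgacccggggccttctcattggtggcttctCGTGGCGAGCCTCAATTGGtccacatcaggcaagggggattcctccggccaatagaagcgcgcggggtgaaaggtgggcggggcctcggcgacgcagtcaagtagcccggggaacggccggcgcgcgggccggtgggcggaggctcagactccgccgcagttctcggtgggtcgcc
Pdia3: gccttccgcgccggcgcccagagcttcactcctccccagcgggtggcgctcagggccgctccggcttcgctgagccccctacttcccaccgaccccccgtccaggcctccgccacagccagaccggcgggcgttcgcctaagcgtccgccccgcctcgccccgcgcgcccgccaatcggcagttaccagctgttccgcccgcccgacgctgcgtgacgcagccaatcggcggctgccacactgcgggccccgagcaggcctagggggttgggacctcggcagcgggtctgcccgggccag
Hspa5 and Creld2 held the longer element once each, and Sdf2l1 and Pdia3 held neither in these windows. Of 27 list members with a promoter entry, 8 held the longer element (29.6%), against 0.119% of all promoter windows. The 8 were Calr, Canx, Creld2, Dnajc3, Hsp90b1, Hspa5, Pdia6 and Syvn1, of which Creld2, Dnajc3 and Hspa5 were called. The variant was in 2 of 27 (Dnajb11 and Herpud1), against 0.0365% of all windows. A match describes the letters only.

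**Figure D3:**
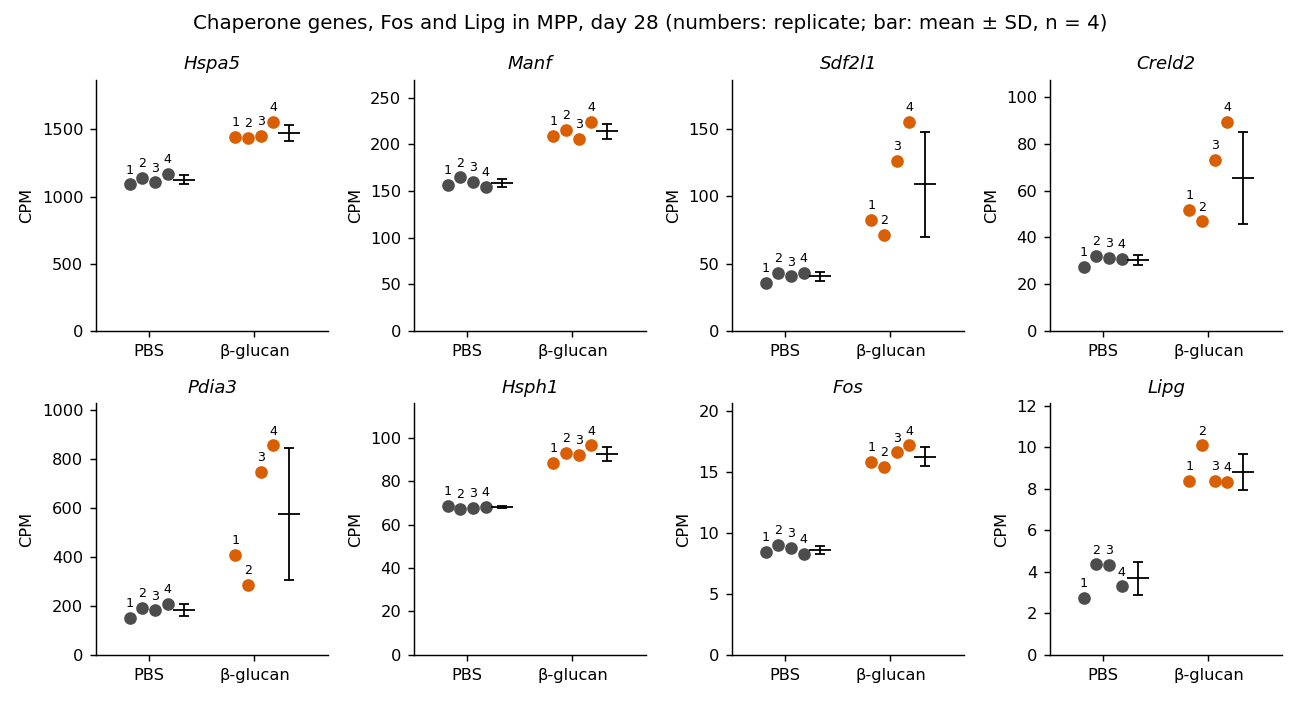
CPM (y axis, from 0) of 5 ER chaperone genes, the cytosolic chaperone Hsph1, Fos and Lipg in each MPP library of PBS and β-glucan mice (x axis). Numbers are replicates and bars are mean ± SD (n = 4). Hspa5, Manf, Hsph1 and Fos rise evenly in the β-glucan libraries, while Sdf2l1, Creld2 and Pdia3 are highest in replicates 3 and 4.

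Chaperones outside the ER rose in part. Of 21 heat shock genes, 4 were called higher and 0 lower (median 0.13), and the list held 0.546 to 0.606% of counts after PBS and 0.618 to 0.681% after β-glucan. Hsph1, a cytosolic HSP110 chaperone, stood at 68.5, 67.4, 67.7 and 68.2 CPM after PBS and at 88.3, 92.8, 92.1 and 96.4 CPM after β-glucan (0.44 ± 0.04, adjusted p = 0.000552). Hspa9, the mitochondrial HSP70, stood at 103.1, 108.9, 107.6 and 114.5 CPM after PBS and at 161.7, 139.9, 212.1 and 239.2 CPM after β-glucan (0.79 ± 0.13). Hsph1 was even across the β-glucan libraries and Hspa9 was highest in replicates 3 and 4, and neither overlapped between arms. Fkbp4 (0.23) and Hsf1 (0.26), the master factor of the heat shock response, were called on all libraries but not with β-glucan replicates 1 and 2 alone, where 2 of the list were higher.

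Fos, an immediate early gene and AP-1 subunit, had one of the smallest p-values of all genes. It stood at 8.44, 9.02, 8.75 and 8.31 CPM after PBS and at 15.8, 15.5, 16.6 and 17.2 CPM after β-glucan. The arms were far apart relative to their spread, with a change of 0.91 ± 0.07 (adjusted p = 0.000187), and 0.86 (adjusted p = 0.000557) with β-glucan replicates 1 and 2 alone. Ier2 (1.48 ± 0.29) and Junb (1.21 ± 0.27) rose too, but Junb was not called with β-glucan replicates 1 and 2 alone (0.65, adjusted p = 0.21). Neither was called when any 1 PBS library was left out. The list as a whole moved both ways: of 28 members 4 were higher and 3 lower (median 0.01). Dusp6 (-0.33 ± 0.05), a phosphatase that dampens ERK, and Btg2 (-0.26 ± 0.06), an antiproliferative gene, fell, and Myc (0.30 ± 0.07) rose. Of the 8 fits without 1 library, Dusp6 was called in 8, Btg2 in 2 and Myc in 3. The list had 1 to 4 members higher and 1 to 3 lower in these fits, and 2 and 1 with β-glucan replicates 1 and 2 alone.

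Several of the largest increases followed the order of the β-glucan libraries. Among the 97 genes called higher by more than 2-fold, 79 (81.4%) had β-glucan replicates 3 and 4 above replicates 1 and 2. Their median difference from the PBS mean was 0.65 on the log2 scale for replicates 1 and 2 and 1.60 for replicates 3 and 4. Klf1, a red cell factor, stood at 12.7, 18.3, 18.6 and 16.8 CPM after PBS and at 37.7, 28.8, 67.4 and 66.8 CPM after β-glucan (1.59 ± 0.24), and was called at 1.01 with replicates 1 and 2 alone. The respiratory chain genes Cox5a (5.23 to 6.04 CPM after PBS and 8.06 to 39.1 CPM after β-glucan) and Cyc1 (13.4 to 15.9 and 20.6 to 66.6 CPM) showed the same order. They were the only 2 of 42 oxidative phosphorylation genes called, and the list's median was 0.02.

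The graded genes had varied functions. They included the replication genes Mcm6 (0.83) and Rfc5 (0.99), Emc6 (1.69), a subunit of an ER membrane insertase, Ddx28 (1.81), a mitochondrial helicase, and the lipid carrier Apoe (1.24). Hist1h2ae (3.35) and Ndufab1-ps (1.75) share 43.2 and 74.2% of their 50-base windows with other genes, and their values are uncertain. Apoe, Hist1h2ae and Ddx28 were not called with β-glucan replicates 1 and 2 alone (adjusted p = 0.0546, 0.0851 and 0.0612). HSC libraries of the same replicate numbers showed the same order for 74 of the 97 genes (76.3%), against 16.8% of all genes tested. Genes called lower showed less of it, with 121 of 302 (40.1%) lowest in β-glucan replicates 3 and 4 against 18.6% of all genes.

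**Figure D4:**
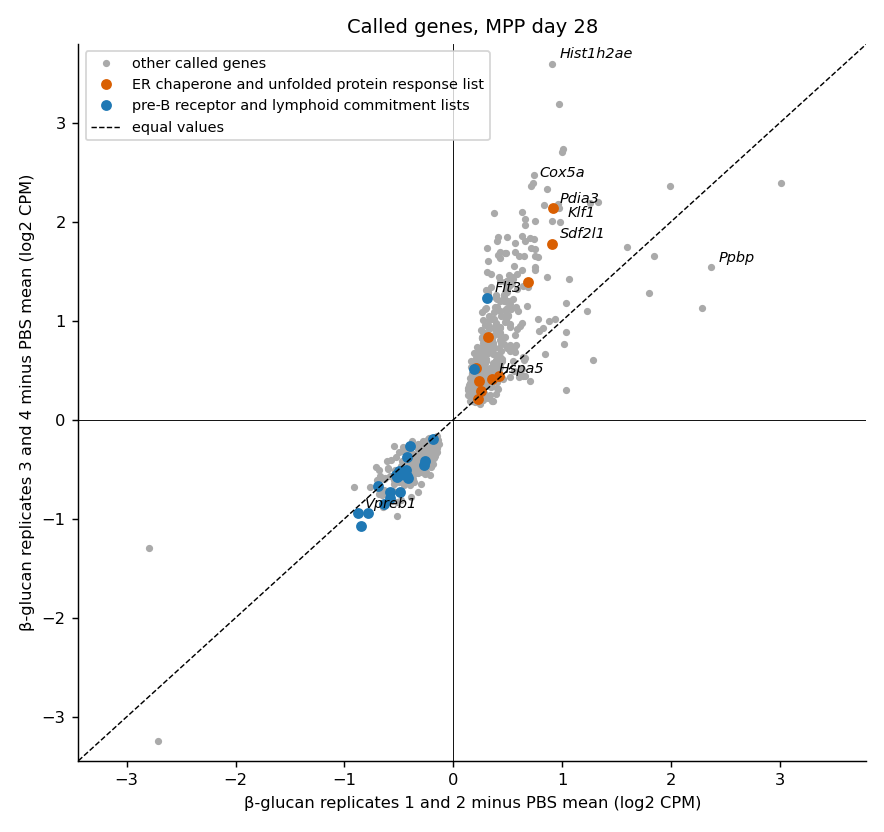
Genes called in MPP: difference from the PBS mean (log2 CPM) in β-glucan replicates 1 and 2 (x axis) and in β-glucan replicates 3 and 4 (y axis). Points are genes and the dashed line marks equal values. Many of the higher genes lie above the line (median 0.35 against 0.66 over the 431 genes), while the 10 pre-B receptor genes called lower lie nearer to it (median -0.61 against -0.76), and Flt3 and Irf8 of the lymphoid list lie above it.

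Some granulocyte-monocyte priming genes were higher after β-glucan. Of 28 granulocyte-monocyte priming genes, 7 were called higher and 1 lower (median 0.08), and 19 had a positive value. The higher genes encode the primary granule proteases Prtn3, Elane, Ctsg and Prss57, the progenitor marker Ms4a3 and the factors Irf8 and Cebpe. Prtn3 stood at 609.5, 677.9, 658.3 and 642.2 CPM after PBS and at 811.4, 912.8, 816.5 and 942.8 CPM after β-glucan (0.43 ± 0.06, adjusted p = 0.00499), and Ms4a3 at 338.6, 380.8, 385.8 and 366.6 CPM and at 475.5, 503.7, 446.2 and 466.8 CPM (0.36 ± 0.05). Neither overlapped between arms, and both were called without each library in turn. Elane (2900 to 3133 CPM after PBS and 3395 to 3743 CPM after β-glucan, 0.25 ± 0.06) and Ctsg (0.27 ± 0.06) were separate too but were not called when any 1 PBS library was left out.

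With β-glucan replicates 1 and 2 alone 5 priming genes were higher and 0 lower, and 2 to 7 were higher without 1 library, with 2 each without PBS replicate 1 or PBS replicate 2 and 3 each without PBS replicate 3, PBS replicate 4 or β-glucan replicate 4. Irf8 (0.36, adjusted p = 0.14 with replicates 1 and 2 alone) and Cebpe (0.27, adjusted p = 0.19) were the 2 that lost their call. Prss57 shares 39.6% of its windows with Fstl3 and is uncertain. The 1 lower gene was Lyz2 (-0.40 ± 0.08), a lysozyme that stays high in mature myeloid cells. The part that RNA of granulocyte precursors in the samples takes in the higher priming genes was not tested.

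Mature neutrophil genes had the largest share of called members of any list, 10 of 17 (58.8%), all lower, with a median of -0.33. Each of the 17 had a negative value. Camp, a granule peptide, stood at 3234, 4075, 3786 and 3126 CPM after PBS and at 2674, 2964, 2459 and 2454 CPM after β-glucan (-0.43 ± 0.09). Ltf, lactoferrin, stood at 8800, 10250, 9980 and 8863 CPM after PBS and at 7374, 7809, 6966 and 6282 CPM after β-glucan (-0.41 ± 0.08). The arms were separate for these genes. No member was called with β-glucan replicates 1 and 2 alone (median -0.24), where the adjusted p of Camp was 0.16 and of Ltf 0.0885, and without 1 library 0 to 14 were called. The count was 0 without PBS replicate 2 and without PBS replicate 3, 2 without β-glucan replicate 3 and without β-glucan replicate 4, and 6 without PBS replicate 1. PBS replicates 2 and 3 had the highest neutrophil shares of counts (7.61 and 7.29%).

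The promoters of Ltf and Mmp8 are shown as the members of the neutrophil list that hold the letters TTGCNNAA (the outer bases of a C/EBP site, both strands, in capitals) among the 4 of the smallest p. C/EBP factors drive granule genes. Windows and build are as above, with Ltf on the plus strand of chr9:111019042-111019341 and Mmp8 on the plus strand of chr9:7558179-7558478.
Ltf: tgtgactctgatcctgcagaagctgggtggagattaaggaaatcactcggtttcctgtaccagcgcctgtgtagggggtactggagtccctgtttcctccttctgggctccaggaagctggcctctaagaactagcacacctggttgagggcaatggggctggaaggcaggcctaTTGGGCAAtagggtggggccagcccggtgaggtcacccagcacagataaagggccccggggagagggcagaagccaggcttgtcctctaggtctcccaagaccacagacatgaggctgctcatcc
Mmp8: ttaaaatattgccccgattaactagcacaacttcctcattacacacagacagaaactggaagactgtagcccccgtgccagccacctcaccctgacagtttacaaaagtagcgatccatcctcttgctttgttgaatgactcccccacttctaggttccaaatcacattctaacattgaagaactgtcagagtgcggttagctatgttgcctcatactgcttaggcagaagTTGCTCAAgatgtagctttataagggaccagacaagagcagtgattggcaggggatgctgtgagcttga
Itgb2l and Camp, the others of the 4, held no match. Of 16 members with a promoter entry, 8 held one (50%), against 10.8% of all promoter windows.

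Interferon genes were lower by small amounts. Of 33 type I interferon stimulated genes, 11 were called lower and 0 higher (median -0.19), and libraries did not overlap for 20 in the lower direction. Over all genes tested, 1.91% were called lower and 5.92% did not overlap in the lower direction. Ifit3 stood at 13.2, 13.2, 16 and 13.4 CPM after PBS and at 9.47, 9.88, 10.2 and 8.69 CPM after β-glucan (-0.54 ± 0.09). Ifit3 and Ifi27l2a (-0.53 ± 0.09) were called without each library in turn, while Isg15 (-0.31), Ifit1 (-0.31), Ifit2 (-0.32) and Oasl2 (-0.25) were not. Without 1 library 2 to 9 members were called, with 2 without β-glucan replicate 3 and without β-glucan replicate 4 and 3 to 4 without any 1 PBS library. The 1 member called with β-glucan replicates 1 and 2 alone was Ifit3 (-0.52). Of the windows of Ifit3, 51.2% occur in its near copy Ifit3b. None of 28 interferon gamma response genes was called (median -0.10), and Irf1, one of those of the smallest p, stood at -0.20 (adjusted p = 0.0641).

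The receptor for β-glucan itself was slightly lower. Clec7a (dectin-1) stood at 31.9, 38.2, 39.5 and 34.6 CPM after PBS and at 30.2, 30.7, 29.9 and 28.7 CPM after β-glucan (-0.27 ± 0.07, adjusted p = 0.0486). All β-glucan libraries lay below all PBS libraries, but only 1 of 8 fits without a library called it, and β-glucan replicates 1 and 2 alone did not (adjusted p = 0.25). It was 1 of 4 called members, all lower, of 23 in the dectin-1 and Syk-Card9 list (median -0.06). The others were Itgam (-0.43) and Itgb2 (-0.32), the chains of complement receptor 3, which also binds β-glucan, and Fcer1g (-0.26). These integrin genes are high in neutrophils, whose markers fell in the same libraries, and the part of neutrophil RNA in them was not tested. Itgam shares 72.4% of its windows with another gene model and is uncertain.

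Of 32 IL-1 and Toll-like receptor genes, 3 were called lower and 0 higher: Il1b (-0.39), its antagonist Il1rn (-0.29) and Il18rap (-0.33). None was called with β-glucan replicates 1 and 2 alone. Il1r1, the IL-1 receptor, was not called: it stood at 15.3, 11, 13.2 and 14.5 CPM after PBS and at 16.5, 15.1, 16 and 18.9 CPM after β-glucan (0.30 ± 0.11, adjusted p = 0.133). Its arms overlapped through PBS replicate 1. Csf2rb, the shared receptor chain for GM-CSF, IL-3 and IL-5, had 0.01 ± 0.04. Of 23 myeloid growth factor receptor and SOCS genes 1 was called, Il3ra (0.75 ± 0.19), at 1.14 to 2.12 CPM after PBS and 2.46 to 3.29 CPM after β-glucan, and it was not called with β-glucan replicates 1 and 2 alone (adjusted p = 0.23).

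Markers that define MPP and stem cells changed little. Kit, the receptor for stem cell factor, stood at 224.9, 196.1, 221.1 and 258.6 CPM after PBS and at 246, 188, 203.1 and 203.8 CPM after β-glucan (-0.10 ± 0.09). Ly6a (Sca-1) had -0.16 ± 0.07, Cd48 0.02 ± 0.05, Cd34 0.11 ± 0.09, Slamf1 0.21 ± 0.21 and Procr -0.06 ± 0.12. The arms of these 6 genes overlapped and none was called, in any fit without 1 library. Of 36 stem cell and sort markers 2 were higher and 1 lower, with a median of -0.03.

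Flt3, a receptor of lymphoid-primed and dendritic progenitors, differed from these markers. It stood at 37.6, 31.2, 32.1 and 40.5 CPM after PBS and at 49.4, 38.7, 72 and 96.3 CPM after β-glucan (0.85 ± 0.22, adjusted p = 0.044). β-glucan replicate 2 lay within the PBS range, replicates 3 and 4 were far above it, and replicates 1 and 2 alone gave 0.32 (adjusted p = 0.24). It was called without β-glucan replicate 1 or without β-glucan replicate 2, and in none of the other 6 fits that leave out a library.

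Cell cycle lists had 10% (DNA replication), 0% (mitosis) and 5.88% (CDK inhibitors and D cyclins) of members called, beside 4.63% of all genes tested. Of 40 DNA replication genes, 4 were called higher and 0 lower (median 0.01), namely the graded genes Mcm6 and Rfc5 and, with smaller changes, Cdt1 (0.36 ± 0.08) and Mcm2 (0.20 ± 0.05). Members called higher were 2 with β-glucan replicates 1 and 2 alone and 1 to 5 without 1 library. Of 33 mitosis genes 0 were called (median -0.00). Mki67, a marker of dividing cells, stood at 200.1, 230.3, 197.3 and 206 CPM after PBS and at 211.6, 183.2, 244.5 and 196 CPM after β-glucan (0.00 ± 0.08). Ccnd3 (0.38 ± 0.09), which starts the cell cycle, was the 1 called of 17 CDK inhibitor and D cyclin genes, and was not called with β-glucan replicates 1 and 2 alone (adjusted p = 0.23).

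Metabolic lists gave about as few calls as all genes. In glycolysis 1 of 30 was lower (Pfkfb4, -0.25), in oxidative phosphorylation 2 of 42 were higher, and in cholesterol synthesis 0 of 29 were called, with medians of -0.03, 0.02 and -0.01. Scap and Srebf1, the members of the smallest p in the cholesterol list, had 0.41 (adjusted p = 0.062) and 0.28 (adjusted p = 0.153). Of 30 ribosome biogenesis genes 2 were higher, Myc and Bop1 (0.26), and 24 had a positive value (median 0.08), but 0 were called with β-glucan replicates 1 and 2 alone and 0 to 4 without 1 library. The summed share of that list was 0.355 to 0.395% after PBS and 0.4 to 0.446% after β-glucan, with no overlap. In the lists not described elsewhere, 1 of 16 glucocorticoid-induced genes was higher and 3 were lower, 1 of 18 NF-kB genes was higher, and 1 of 25 BCL2 family and p53 target genes and 1 of 12 MHC class II genes were lower. In the fit of β-glucan replicates 1 and 2 alone 1 glucocorticoid-induced gene was higher and 1 lower, and none of the NF-kB, BCL2 family and p53 or MHC class II genes was called.

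Other myeloid and erythroid lists differed in their share of called members on all libraries, beside 4.63% of all genes tested. The share was 3.85% for erythroid, 6.67% for dendritic cell, 10.5% for eosinophil, basophil and mast cell, and 20.8% for megakaryocyte and platelet genes. Of 26 erythroid markers Klf1 alone was called, higher, and the list's median was -0.09. Beside 0 called lower, 7 erythroid markers were called lower without β-glucan replicate 2, 5 with the DESeq2 Wald test, 5 with the replicate block and 4 without a filter. Flt3 was the 1 called of 15 dendritic cell genes. The basophil proteases Prss34 (0.27 ± 0.06) and Mcpt8 (0.21 ± 0.05) were the 2 called of 19 eosinophil, basophil and mast cell genes (median 0.15), both higher, also with β-glucan replicates 1 and 2 alone. Neither was called without any 1 PBS library, without β-glucan replicate 3 or in 1 fit of all 4 day 28 groups. The share of that list was 0.341 to 0.411% after PBS and 0.426 to 0.478% after β-glucan. Of 24 megakaryocyte and platelet genes 4 were higher and 1 lower (median 0.15), and 4 and 0 with β-glucan replicates 1 and 2 alone. Pf4, platelet factor 4, stood at 20, 24.9, 18 and 20.8 CPM after PBS and at 31.9, 36.5, 23.4 and 32.2 CPM after β-glucan (0.57 ± 0.13). Its β-glucan replicate 3 lay inside the PBS range, as did that of Ppbp, at 2.26 to 3.74 CPM after PBS and 13, 25.1, 3.21 and 29.1 CPM after β-glucan (2.48 ± 0.49). Ppbp was not called without any 1 PBS library, and Pf4 not without PBS replicate 1, 3 or 4 or β-glucan replicate 4. The arms of the other higher members, Treml1 (1.22) and Itga2b (0.38), did not overlap. Treml1 was low, at 1.135 to 1.615 CPM after PBS and 2.008 to 4.272 CPM after β-glucan (scaled over 16 libraries). Of the 8 fits without 1 library, Treml1 was called in 8 and Itga2b in 5. In 1 fit of all 4 day 28 groups, 0 members of the list were called.

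Stromal and endothelial genes had the highest list median, 0.39, with 3 of 22 called higher and 0 lower. Cxcl12, the niche chemokine that retains stem cells, stood at 43.2, 37.4, 40.1 and 36.3 CPM after PBS and at 49.8, 51.6, 58.3 and 56.9 CPM after β-glucan (0.46 ± 0.07). Lepr, a marker of marrow stroma, had 1.37 to 2.15 CPM after PBS and 2.87 to 3.31 CPM after β-glucan (0.75 ± 0.15). The arms of both were separate. The summed share of the list was 0.0316 to 0.0357% after PBS and 0.0379 to 0.0424% after β-glucan, and with β-glucan replicates 1 and 2 alone Cxcl12 was called and Lepr was not (adjusted p = 0.0942). Eng (0.51 ± 0.11), the other member called, was not called there either (adjusted p = 0.14). Without 1 library 1 to 3 members were higher, with 1 each without PBS replicate 2, PBS replicate 3 or β-glucan replicate 3. The part that stromal cells in the samples take in these genes was not tested. Among monocyte and macrophage genes 1 of 20 was higher (Apoe) and 4 were lower, Marco (-1.14 ± 0.25), Cx3cr1 (-0.46 ± 0.10), Cd68 (-0.24 ± 0.06) and Ms4a6c (-0.18 ± 0.05), and 0 were called with β-glucan replicates 1 and 2 alone.

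A few genes outside the lists had large and even changes. Lipg, endothelial lipase, stood at 2.77, 4.36, 4.34 and 3.31 CPM after PBS and at 8.39, 10.1, 8.38 and 8.35 CPM after β-glucan (1.26 ± 0.15, adjusted p = 0.00234), and 1.33 with β-glucan replicates 1 and 2 alone. Among the genes that fell most were Bfsp2 (-0.83 ± 0.12), an intermediate filament gene, Alpl (-0.79 ± 0.12), alkaline phosphatase, Gfra1 (-0.75 ± 0.13), a GDNF co-receptor, and Cplx2 (-0.71 ± 0.10), a regulator of vesicle fusion. For these 4 genes and Lipg the arms did not overlap, and all 5 were called without each library in turn and with β-glucan replicates 1 and 2 alone. Plekha2, a phosphoinositide binding adaptor, fell by 0.38 ± 0.05.

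HSC from the same table, 4 PBS and 4 β-glucan libraries of day 28, were used to ask whether the response was particular to MPP. In 1 fit of the 16 libraries, the difference between the MPP and the HSC effect was called for 1 of 16691 genes (0.00599%), and 1033 had an unadjusted p under 0.05. The 1 gene was Igkv4-91, a light chain variable segment, with a difference of -6.64. Of the genes called in MPP, 407 of 431 higher genes (94.4%) and 292 of 302 lower genes (96.7%) had the same sign in HSC, against 67.2% of all genes tested. Their medians were 0.56 in MPP and 0.36 in HSC for the higher genes, and -0.34 and -0.26 for the lower. HSC and MPP libraries of the same arm may come from the same mice, which the labels do not say.

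Most of the early B lineage genes named here had a lower value in MPP than in HSC, but the difference passed the test for none of them. Igll1 had -0.44 in HSC (difference -0.51, adjusted p for the difference = 0.677), Vpreb1 -0.63 (-0.29) and Blnk -0.33 (-0.33). Ebf1 had -0.03 in HSC, where it was not called, and Id3 0.12, with differences of -0.47 and -0.52 that were not called either. The list's median was -0.26 in HSC. Rag2 had -0.93 in HSC, a lower value than in MPP. Among the genes that rose, Hspa5 (0.32 in HSC), Manf (0.54), Creld2 (1.01), Fos (0.96) and Lipg (1.39) had differences of -0.13 to 0.09, and Pdia3 (0.67) and Klf1 (0.75) had 0.98 and 0.84, none called. Kit was called lower in HSC (-0.47) and not in MPP, and that difference (0.38) was not called. HSC and MPP libraries of the same arm and number deviated together (correlations of 0.195 to 0.316 over genes after β-glucan and 0.068 to 0.164 after PBS), which the fit does not use. With arm and number as a replicate block the difference was called for Igkv4-91 and Adgrl4, and for none of the early B lineage genes named (adjusted p of 0.292 for Igll1 and 0.332 for Ebf1).

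**Figure D5:**
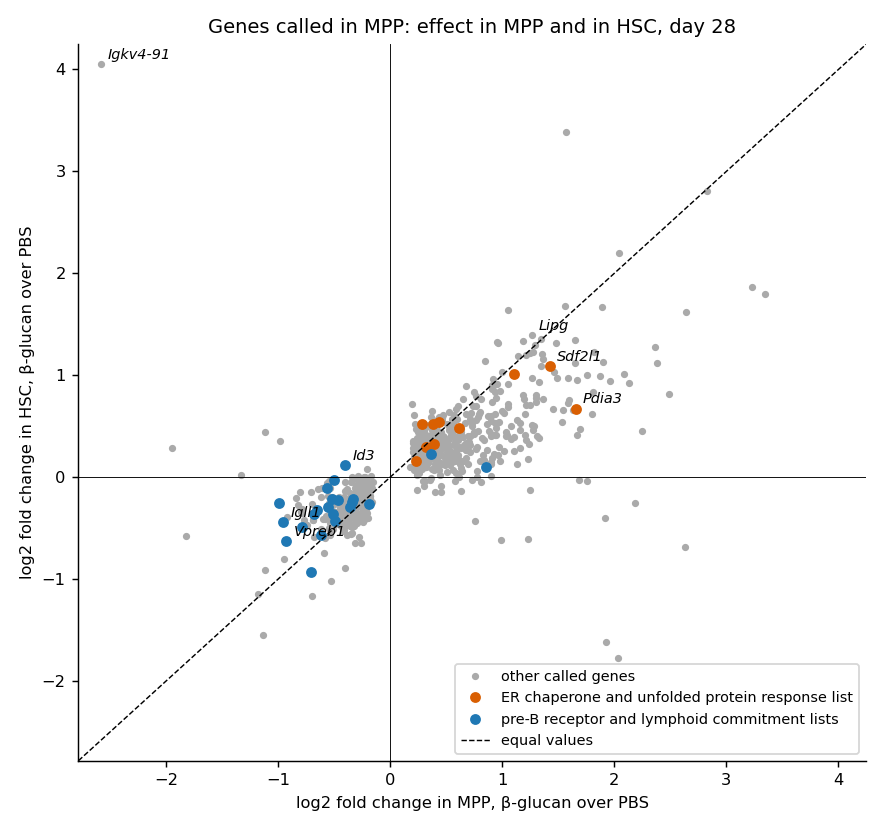
Log2 fold change (β-glucan over PBS) in MPP (x axis) and in HSC (y axis) at day 28 of the genes called in MPP, from 1 fit of 16 libraries. Points are genes and the dashed line marks equal values. Most genes lie in the quadrants of equal sign, 407 of 431 higher and 292 of 302 lower, and Igkv4-91, at the top left, is the 1 gene whose difference was called.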

How the data were processed

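Gene counts of 8 MPP libraries, and of 8 HSC libraries in the same table for 1 contrast, were used as deposited by the authors. The submitters' processing notes name bcl2fastq 1.8.4, featureCounts (no version given) and the build mm10, and the table lists 45706 gene identifiers. No aligner is named in the sources used here. Per the labels' protocols, RNA of sorted cells was amplified with a SMARTer Ultra protocol. Symbols came from a GENCODE M21 table, which left 563 identifiers unnamed, and promoters from RefSeq (GRCm38.p6). Total counts were 24567232 to 35917497 per library, and replicate pairs differed by more than sampling noise (chi-square per gene 7.07 to 26.5).

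In R 4.3.3, edgeR 4.0.16 kept genes by filterByExpr (minimum count 10), scaled them by TMM and tested the 2 arms with its quasi-likelihood test, with Benjamini-Hochberg adjustment over all genes and a threshold of 0.05. CPM use TMM-scaled totals, and the standard error is the log2 fold change divided by the square root of F. The MPP minus HSC difference was a contrast of 4 groups. The within-arm differences used log2(CPM + 0.5). The main fit and the MPP minus HSC contrast were tested on simulated counts, and the alternative fits were not. No column of per-library values in the table was left unmapped. Of 820 list genes, 816 matched a symbol and 791 were tested. A gene shared with near copies was judged by the share of its 50-base windows, in its longest transcript, found in transcripts of other genes.

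Named genes were the 10 largest changes in each direction among called, separated genes with mean log2 CPM of at least 2 and a standard name, then the 10 called genes of next smallest p, up to 8 called members of each list (2 where none was called), 16 genes of prior interest and up to 6 called differences. Other members named are examples picked after their values were seen. A few list members counted in the totals are not reported by name here. The members, lists and tests were chosen with earlier results of these data known. Alternatives were DESeq2 1.42.0 size factors and Wald test, a filter of CPM 5 or more in 4 libraries or none, limma 3.58.1 voom weighted by library quality, 1 fit of all 4 groups, a replicate block and leaving out libraries.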

Additional observations from a re-analysis of the deposited data

Results flagged for a closer look

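Among the named genes, 294 groups of 4 libraries were searched for a library far from the other 3 (gap over range above Dixon's critical value, which chance gives in about 1 of 20 groups), and 10 were found, a smaller share than chance gives. In the PBS arm these were Cox5a in replicate 3 (5.23 CPM, the others 5.96 to 6.04), Gzma in replicate 4 (9.98 CPM, others 11.3 to 11.5), Ifit3 in replicate 3 (16 CPM, others 13.2 to 13.4), Slamf1 in replicate 4 (0.935 CPM, others 1.3 to 1.36), and the light chain segments Igkv3-12 in replicate 3 (5.64 CPM, others 2.34 to 2.61) and Igkv4-91 in replicate 4 (51.1 CPM, others 18.7 to 22.8). In the β-glucan arm they were Hspa5 in replicate 4 (1557 CPM, others 1436 to 1449), Ifit1 in replicate 4 (14.4 CPM, others 16.6 to 16.7), Lipg in replicate 2 (10.1 CPM, others 8.35 to 8.39) and the heavy chain segment Ighv5-9-1 in replicate 2 (28.7 CPM, others 13.6 to 15.8).

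Igkv4-91 was the 1 gene whose β-glucan effect differed between MPP and HSC by edgeR's test of the difference (-6.64). In MPP it stood at 18.7, 21.6, 22.8 and 51.1 CPM after PBS and at 13, 0.733, 3.28 and 1.61 CPM after β-glucan, and its effect in HSC was 4.05.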

How the results depend on the processing

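Against 431 genes higher and 302 lower, edgeR without a filter called 724 and 457, the DESeq2 Wald test 742 and 560, and 1 fit of all 4 day 28 groups 236 and 90. Leaving out 1 library gave 87 to 641 higher and 77 to 390 lower, with 106 and 151 without PBS replicate 1, 87 and 77 without PBS replicate 2, 112 and 85 without PBS replicate 3, 173 and 146 without PBS replicate 4, 135 and 131 without β-glucan replicate 3, and 198 and 139 without β-glucan replicate 4. Chosen after seeing the data, leaving out β-glucan replicates 3 and 4 gave 122 and 67, and leaving out β-glucan replicates 1 and 2 gave 1079 and 528. The cause was not tested. DESeq2 size factors (431 and 297), the stricter filter (404 and 356) and limma voom (350 and 290) stayed within 1.5 times.

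Deviations of same-numbered libraries of the 2 arms correlated weakly, at -0.01, 0.07, 0.17 and 0.14 for numbers 1 to 4. Numbers 2, 3 and 4 matched best with their own number and number 1 did not. What same-numbered libraries share between arms was not tested. With the replicate number as a block, 525 genes were higher and 390 lower. The MPP minus HSC difference was called for 1 gene, for 2 without a filter, 2 with the DESeq2 Wald test, 2 with the replicate block, 1 to 3 without 1 library and 0 without β-glucan replicates 3 and 4 of both cell types.

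Of 132 named genes called, 51 were called without each library in turn, and none of the 132 changed sign in these fits. Of 15 named genes not called, 4 changed sign (Mki67, Cd48, Csf2rb and Procr). Libraries held 24567232 to 35917497 counts, and whether depth sets which calls are lost was not tested: Marco, at 0.345 to 1.27 CPM, and Ngp, at 17860 to 29010 CPM, were each called in 3 of the 8 fits that left out 1 library.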

Other observations

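Immunoglobulin variable segments, a group defined after the values were seen, moved both ways in MPP and varied between libraries of one arm. Of 190 segments tested, 13 were called higher and 3 lower after β-glucan (median -0.12). The split depended on the setting, with 29 higher and 29 lower without a filter, 11 and 10 with limma voom, 22 and 12 with the replicate block, 9 and 7 with β-glucan replicates 1 and 2 alone, and 5 to 16 and 1 to 11 without 1 library. Ighv1-54 stood at 1.92, 1.45, 1.81 and 3.04 CPM after PBS and at 8.9, 5.58, 5.46 and 11.1 CPM after β-glucan (1.92 ± 0.26), with no overlap, and had -1.62 in HSC. Igkv10-96 stood at 114.5, 82.9, 71.6 and 76.5 CPM after PBS and at 46.7, 59.2, 58.4 and 47.3 CPM after β-glucan (-0.71 ± 0.13), and 32.6% of its 50-base windows occur in other segments. Segments summed to 0.204 to 0.237% of counts after PBS and 0.206 to 0.253% after β-glucan.

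Histone genes, also grouped after the values were seen, had 6 of 39 called higher and 0 lower (median 0.14), and 1 with β-glucan replicates 1 and 2 alone. Their summed share was 0.0311 to 0.0416% after PBS and 0.0337 to 0.0397% after β-glucan. Of 87 cytosolic ribosomal protein genes 2 were called, both higher, with a median of -0.05.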
